A study of Homo sapiens with 16 samples.

Results

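Itraconazole-treated cells of the colorectal cancer line HT55 were compared with itraconazole-treated cells of the colorectal cancer line SW948, gene by gene, and the same line difference was measured in the vehicle control cultures. The comparison was set by the labels alone: it takes the 8 treated libraries of the 16 in the series, with 4 libraries for each line, and uses the other 8 libraries to ask which line differences remained, closed, opened or turned under the drug. HT55 and SW948 are established human lines from colorectal carcinomas, and the labels give no genetic change in either. The cells grew as adherent cultures with foetal bovine serum, received 5 µM itraconazole or its solvent dimethyl sulfoxide (DMSO), and were collected on day 6. Each line stands for 1 tumour, so a difference below is a difference between these lines and not between classes of tumour. The methods of the study describe its replicates as biological, and neither they nor the labels say how the cultures behind the libraries were kept apart, so the p-values measure the spread between these libraries.

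Itraconazole is an azole antifungal drug, and azoles bind lanosterol demethylase, the CYP51A1 product, an enzyme of cholesterol synthesis. Cells sense sterols in the endoplasmic reticulum: when they run low, SCAP escorts the transcription factors made from SREBF1 and SREBF2 to the Golgi, where proteases release them to switch on the genes of sterol synthesis and uptake. Colon cancer cells also carry the programmes of the crypt and of the mucosal surface: Wnt targets and cell cycle genes mark the dividing compartment, and absorptive genes such as SLC26A3 mark the mature colonocyte.

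The treated libraries held between 8735044 and 10844560 reads assigned to genes, and the DMSO libraries between 8269406 and 11110814. Levels are given in CPM, the counts of a gene relative to the size of its library, which was scaled by the trimmed mean of M values. They are not divided by gene length, so they compare libraries and not genes. All 14 colon epithelial markers searched for were expressed at a tested level in these libraries. Of the 11 fibroblast markers 3 were tested, and of the 12 leukocyte and endothelial markers only LYZ, which colon epithelium can also make. Replicates lay further apart under the drug. The chi-square per gene between libraries of a group ran from 1.43 to 4.85 under DMSO and from 3.76 to 40.5 under itraconazole, where pairs with treated HT55 replicate 3 gave 12.3 to 40.5 and the other treated HT55 pairs 4.88 to 15.7. The pairs of treated SW948 gave 3.76 to 21.5, the largest between replicates 1 and 3. SW948 libraries under DMSO held 0.330% to 0.680% of the HT55 level of 202 genes that were at least 6 log2 units higher in HT55, and replicate 3 had the highest share. The same share was 0.253% to 0.361% in treated SW948 for 200 such genes, and 0.489% to 0.642% in treated HT55 for 155 genes of SW948. Where leaving out 1 of these libraries changed a call of a named gene, the value without it stands beside that gene. In bulk RNA, fewer cells of a kind and less RNA per cell cannot be told apart.

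The treated lines differed at most genes. Of 13249 genes tested, 10713 (80.9%) differed under itraconazole at an adjusted p under 0.05 in edgeR's quasi-likelihood test: 5500 (41.5%) were higher in HT55 and 5213 (39.3%) higher in SW948. For 9238 genes (69.7%) all 4 treated libraries of a line lay beyond all 4 of the other. Under DMSO this held for more genes, 10328. Under DMSO, 10055 (75.9%) differed, of which 4996 (37.7%) were higher in HT55 and 5059 (38.2%) in SW948. The difference itself changed between the drug states at 7141 genes (53.9%), moving towards HT55 at 3849 (29.1%) and towards SW948 at 3292 (24.8%). The median size of a difference was 0.81 on the log2 scale under itraconazole and 0.65 under DMSO. With plain library totals in place of the scaling factors, the median gene moved by 0.19 towards HT55 in the change, and the split became 4929 towards HT55 against 2295. The DMSO difference then split into 3918 higher in HT55 against 6134 higher in SW948, whereas the split under itraconazole kept within 1 percentage point.

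Each gene was classed by these calls. A line difference was kept at 4122 genes (31.1%), where it was called in both states with the same sign and its change was not called. It narrowed at 1137 (8.58%) and widened at 2270 (17.1%) without changing sign. Where the change was called, a difference closed at 1067 genes (8.05%), called under DMSO only, and opened at 1702 (12.8%), called under itraconazole only. Fewer genes opened when each group was given its own weight, as listed with the processing settings below. It turned at 927 (7%), called in both states with opposite signs. Most large differences kept their sign: of 1133 genes apart by at least 3 log2 units under DMSO, 1090 (96.2%) were called with the same sign under itraconazole, 29 closed and 6 turned. Of the 1090, 820 were kept, 197 narrowed and 73 widened. The mean CPM of SW948 moved further, on the log2 scale, from its DMSO level than that of HT55 at 72.2% of all genes. The share was 85.5% among the opened genes, 88.6% among the turned, 82.7% among the widened, 80.7% among the closed, 66.6% among the narrowed and 60.5% among the kept genes. Across genes the differences in both states correlated with Pearson's r = 0.85 and Spearman's rho = 0.747, where genes are not independent replicates.

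**Figure D1:**
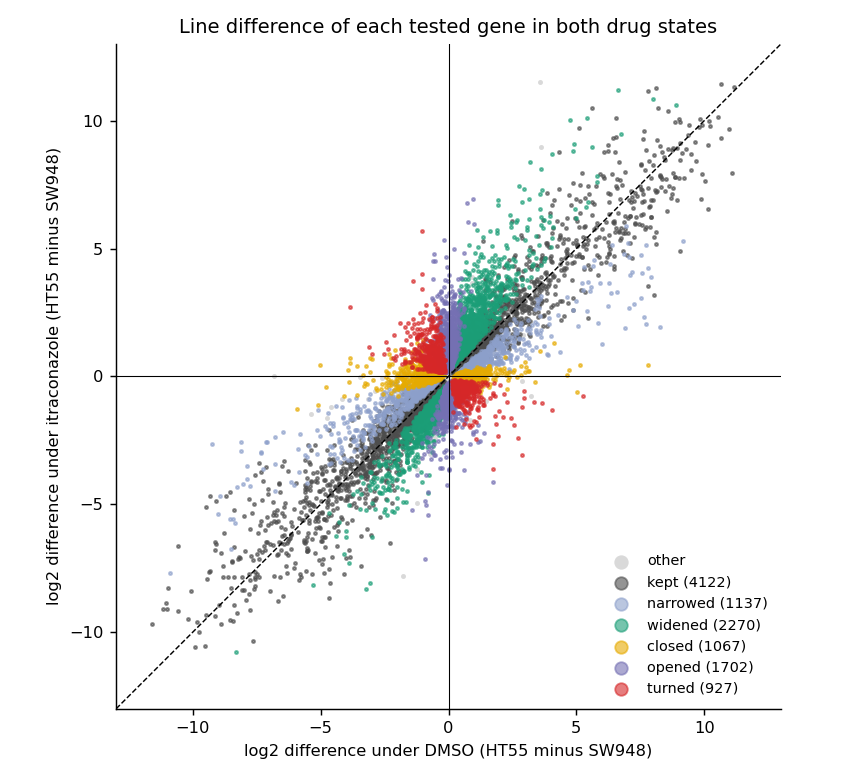
Line difference (log2, HT55 minus SW948) of each of the 13249 tested genes under DMSO on the x axis and under itraconazole on the y axis, 1 point per gene, coloured by class with the number of genes, and the dashed line marking equal differences. Differences of several log2 units lie along the dashed line in both directions, opened genes lie along the vertical axis, closed genes along the horizontal axis, and the 927 turned genes fill the other quadrants close to the centre.

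The largest differences under the drug belonged to genes all but silent in the other line. SLC26A3, the chloride-bicarbonate exchanger of the colonocyte surface, was listed at 6604, 7159, 7267 and 8711 CPM in the treated HT55 libraries and at 3.61, 3.48, 1.91 and 3.5 CPM in treated SW948. Under DMSO, HT55 had 599, 573, 501 and 521 CPM and SW948 3.45, 2.93, 14 and 2.08 CPM. The HT55 libraries lay far above SW948 in both states, SW948 DMSO replicate 3 was the highest of its group, and the gap widened from 6.62 to 11.2 log2 units (SE 0.41 under the drug, adjusted p = 6.88e-07 for the change). MME, a cell surface peptidase of brush borders, stood at 612 ± 95.8 CPM (SD, n = 4) in treated HT55 and 0.315 ± 0.307 in treated SW948, a log2 difference of 10.85. It had widened from 7.99 under DMSO, but this change was lost without SW948 DMSO replicate 3 (adjusted p = 0.141), the library with the highest traces of HT55 genes.

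CHST15, a sulfotransferase of chondroitin chains, the homeobox factor DLX3, the glutamate receptor GRM8 and the cadherin CDH13 had no count in any treated SW948 library. Taking 3 counts over the group as the floor, CHST15 was at least 417-fold higher in HT55, DLX3 at least 381-fold, GRM8 at least 364-fold and CDH13 at least 214-fold. All of these were classed as kept, since their change was not called. With no reads in treated SW948, the size of such a change cannot be measured. CHRNA1, a muscle-type acetylcholine receptor subunit, was also at 0 counts in treated SW948, and at least 437-fold higher in HT55. Its HT55 level was 0.758, 0.515, 0.531 and 0.83 CPM under DMSO and 13.7, 11.3, 65.8 and 61.6 CPM under the drug. The treated HT55 libraries 3 and 4 were thus several fold above 1 and 2, and the change of its line difference was not called (adjusted p = 0.253).

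On the SW948 side, all 8 of the largest differences were classed as kept, their change not being called. JUN, a subunit of the AP-1 transcription factor, had 135, 156, 178 and 127 CPM in treated SW948 and 0, 0.118, 0.0952 and 0.124 CPM in treated HT55, where 3 reads were counted in all. The ratio was 1744 with a 95% counting interval of 596 to 8460.5. Under DMSO, SW948 had 113, 116, 122 and 120.3 CPM and HT55 0, 0.309, 0.106 and 0 CPM, so JUN RNA was all but missing from HT55 in either state. SLC7A2, a cationic amino acid transporter, and SAV1, a scaffold of the Hippo pathway, each had 1 read in treated HT55, and the ratios were 2184 (95% counting interval 392 to 86303) and 1097 (196 to 43375). MTARC2, a mitochondrial reductase, had none, and was at least 200.0-fold higher in SW948. NID1, a basement membrane protein, and STOM, a membrane protein, had 3 reads each in treated HT55, and their ratios were 956 (327 to 4639) and 734 (251 to 3563). TRIP6, an adaptor of adhesion sites, and the hydrolase CMBL were 906-fold and 784-fold higher in SW948. These 8 genes separated all treated SW948 libraries from all treated HT55 libraries.

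Kept differences with a tight bound on their change were few: 5 genes higher in HT55 and 4 higher in SW948 had a difference of at least 3 log2 units in both states and a 95% interval of the change within 0.5 either way. PRUNE2 had 422, 437, 473 and 468 CPM in treated HT55 and 14.5, 11.6, 12.2 and 13 CPM in treated SW948, 5.12 log2 units apart, against 5.04 under DMSO. Its level was higher under the drug in both lines, and the gap stayed where it was. ADGRG1, an adhesion receptor, NUP210, a nuclear pore protein, SESN3, a stress-induced sestrin, and RGCC, a cell cycle regulator, kept HT55 differences of 3.55, 3.19, 3.11 and 3.03. MXRA7 was 4.34 log2 units higher in SW948 under the drug and 4.32 under DMSO. TMCC3 had 49.6, 51.9, 51.7 and 55.7 CPM in SW948 under DMSO and 184, 181, 170.0 and 179 CPM under itraconazole, while HT55 had 2.71, 2.57, 2.87 and 2.61 and then 9.98, 10.9, 7.9 and 10.3 CPM. Both lines thus had more TMCC3 RNA under the drug, and the difference was 4.27 before and 4.2 after. RAI14 and TRABD2A, higher in SW948 by 3.52 and 3.13 under the drug, completed the set.

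Opened differences had no called counterpart under DMSO. The rule for a tight opening (95% interval of the DMSO difference within 0.5 either way, difference of at least 1 under the drug) was met by 182 genes that became higher in HT55 and 102 that became higher in SW948. It allowed a small DMSO difference to be called, so these counts include genes classed as widened or turned. GEN1, a Holliday junction resolvase, had 31.9, 31.9, 32.3 and 35.6 CPM in HT55 and 33.8, 32.5, 28.8 and 32.2 CPM in SW948 under DMSO. Under itraconazole HT55 had 16.2, 12.7, 27.3 and 17.4 CPM and SW948 3.31, 1.81, 1.91 and 2.94 CPM. Every treated HT55 library lay above every treated SW948 library, and the difference opened to 2.86 log2 units (SE 0.22, adjusted p = 4.33e-10). PDE3B, a cyclic nucleotide phosphodiesterase, had 31.4 ± 6.56 CPM in treated HT55 and 5.19 ± 0.773 CPM in treated SW948, from 26.5 ± 1.1 and 30.8 ± 1.32 under DMSO. PAG1, a membrane adaptor, IQANK1 and GLB1L2 opened to 2.75, 2.35 and 2.4 log2 units higher in HT55. In these 5 genes the mean SW948 CPM under the drug was 0.0782 to 0.191 of that under DMSO.

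Towards SW948, PHLDA1, a gene induced by growth factor signalling, had 701, 761, 770.2 and 619 CPM in treated SW948 and 216, 209, 149 and 221 CPM in treated HT55, from 239 ± 12.4 and 229 ± 18.9 CPM under DMSO. The difference opened to 1.84 log2 units (SE 0.11), with all treated SW948 libraries above all treated HT55 libraries. HAS3, which makes hyaluronan, had lower values with the drug in HT55, 15.2 ± 0.706 and then 7.12 ± 1.92 CPM, and higher values in SW948, 16.6 ± 1.43 and then 27.9 ± 4.39 CPM. The HAS3 difference was 1.97 log2 units towards SW948 under the drug. HNRNPDL, an RNA-binding protein, and RCAN3, a calcineurin regulator, opened to 1.59 and 1.71. LIPG, the endothelial lipase, reached 2.26 and SRRM1, a splicing factor, 1.4, but small DMSO differences of 0.21 towards SW948 and 0.17 towards HT55 were also called, so these counted as widened and turned.

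Closed differences were met by the same tight rule in 74 genes higher in HT55 under DMSO and 56 higher in SW948. Here too a small difference under the drug could be called, so these counts include genes not classed as closed. TRIM47, a ubiquitin ligase, had 44.8, 40.4, 40.9 and 40.2 CPM in HT55 and 4.17, 3.98, 6.43 and 4.16 CPM in SW948 under DMSO. Under itraconazole the values were 31.6, 28.3, 32.8 and 32.3 in HT55 and 25.5, 25.4, 35.3 and 22.4 in SW948, and the libraries of the lines overlapped. The log2 difference went from 3.15 to 0.21 (95% interval under the drug -0.06 to 0.48). CNN3, an actin-binding calponin, went from 1.92 to 0.08, EFNA3, an ephrin, from 2.24 to 0.06, and CISH, a cytokine signalling inhibitor, from 1.81 to -0.16. ACSS2, which makes acetyl-CoA from acetate, and FDPS, the farnesyl diphosphate synthase of sterol synthesis, met the interval rule too, at 0.22 and -0.24, although these small differences were called. Among genes that SW948 had expressed more, IFT88, a transport protein of cilia, had 44.6, 52.9, 43.3 and 44.4 CPM in SW948 and 11.9, 12, 13.7 and 12 CPM in HT55 under DMSO. With the drug SW948 had 11.4, 7.74, 7.38 and 8.14 CPM and HT55 7.13, 6.26, 12.3 and 9.32 CPM, and the difference of 1.9 closed to -0.01. IL1R2, a decoy receptor for interleukin-1, DST, a cytolinker, PGAP1 and SYTL2 closed from between 1.57 and 2.01 log2 units. RALGAPA2 narrowed from 2.03 to 0.19.

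Turned differences of at least 1 log2 unit in both states were rare, 8 in each direction. CFTR, the chloride channel of the crypt, had 110.4, 118, 119.6 and 111 CPM in SW948 and 22.2, 24.6, 20.3 and 22.3 CPM in HT55 under DMSO. Under itraconazole SW948 had 18, 7.48, 6.87 and 9.72 CPM and HT55 22.4, 20.1, 24.7 and 24 CPM. The SW948 libraries lay above all HT55 libraries under DMSO and below all of them under the drug. SW948 had led by 2.36 log2 units, and HT55 led by 1.08 (SE 0.19). ARRB1, a beta-arrestin, DBNL, an actin-binding adaptor, ASL, an enzyme of the urea cycle, COL17A1, a hemidesmosome collagen, and CDC42BPG, a kinase, also turned to HT55, with changes between 2.31 and 2.79. CDKN1C, the CDK inhibitor p57, turned the other way. It had 8.77, 7.31, 9.02 and 7.95 CPM in HT55 and 2.73, 2.37, 2.34 and 1.85 CPM in SW948 under DMSO, and 18.4, 18.3, 18.8 and 18.9 and 36.1, 61, 75.6 and 47.1 CPM under itraconazole. Both lines had more CDKN1C RNA with the drug, and SW948 ended 1.56 log2 units above HT55. ARRDC3, an arrestin-like adaptor, TPPP, a tubulin-polymerising protein, and SNAI1, a repressor of epithelial genes, turned to SW948 by 1.0, 1.34 and 1.13 log2 units. INSIG1 and MSMO1 completed this set and are described with the sterol genes.

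**Figure D2:**
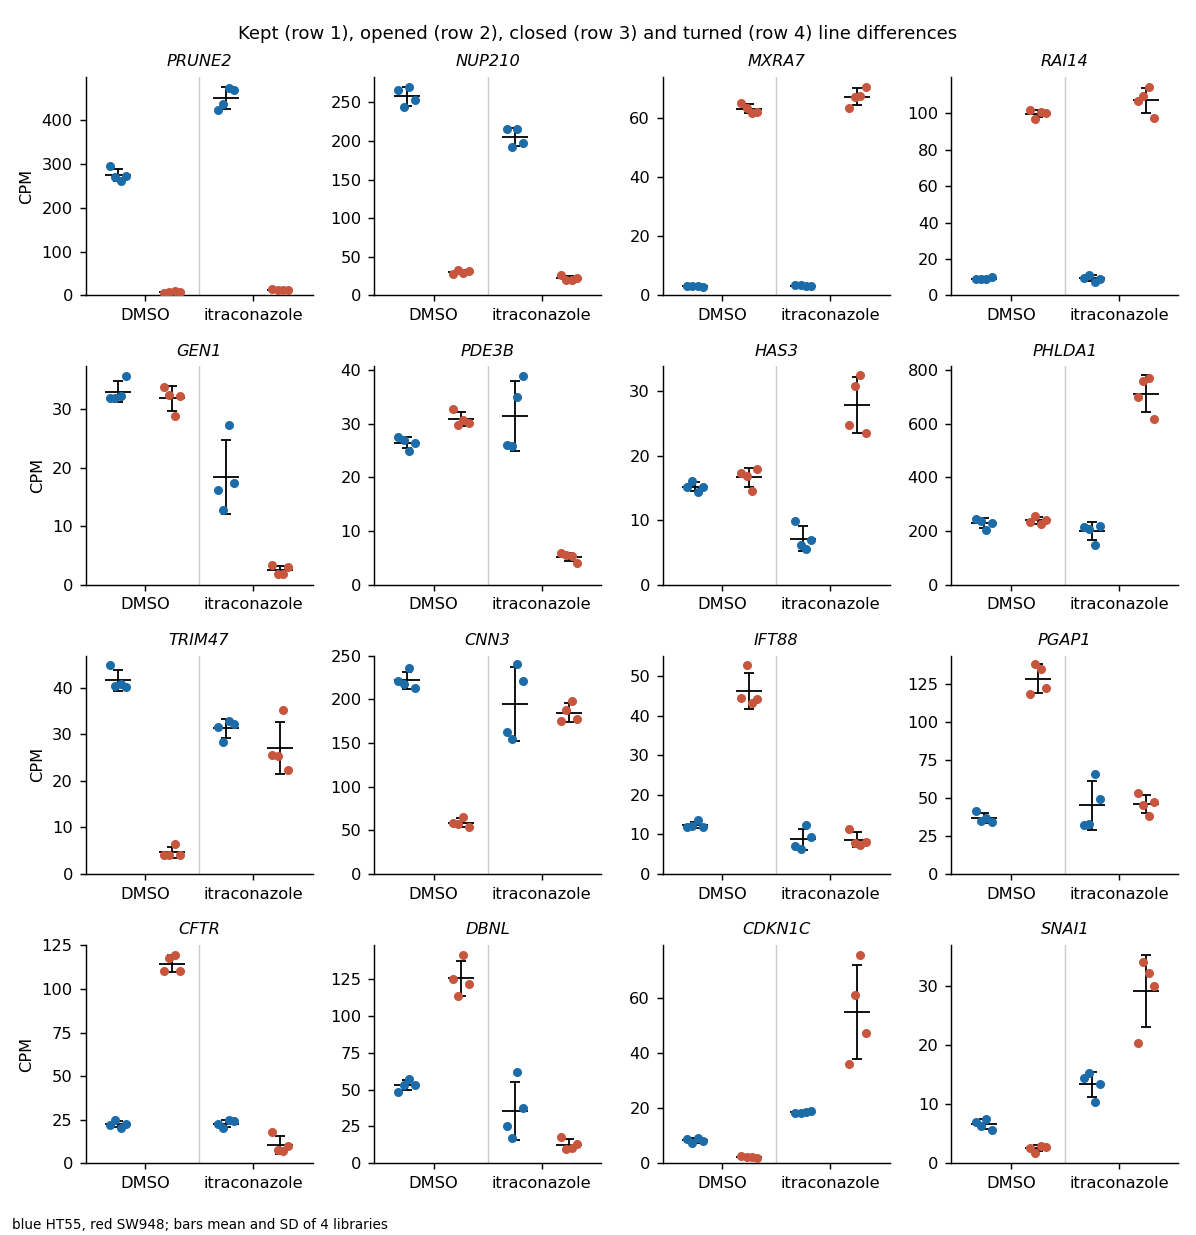
CPM of 16 genes in each of the 16 libraries, HT55 in blue and SW948 in red, DMSO to the left and itraconazole to the right of the grey line in each panel, with bars for the mean and SD of 4 libraries. The rows show kept, opened, closed and turned differences in that order: PRUNE2 stays 5.12 log2 units apart under the drug, GEN1 opens to 2.86, TRIM47 closes to 0.21 and CFTR turns to 1.08 (HT55 minus SW948).

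The gene groups below are to be read against all 13249 genes, of which 41.5% were higher in HT55 and 39.3% in SW948 under itraconazole, 31.1% were kept, and 29.1% changed towards HT55 and 24.8% towards SW948. Under DMSO 37.7% of all genes were higher in HT55 and 38.2% in SW948. Most sterol synthesis genes changed sides or moved towards SW948. Under DMSO 15 of the 22 tested enzymes were higher in HT55 and 1 in SW948. Under itraconazole 3 were higher in HT55 and 14 in SW948, against 39.3% of all genes higher in SW948. The line difference changed at 17, towards SW948 at 16 of them, and 11 turned, 3 opened, 2 closed, 2 were kept and 1 widened. Over the 22 genes the median difference went from 0.80 under DMSO to 0.56 towards SW948 under itraconazole, where the median of all genes was 0.04. HMGCS1, the HMG-CoA synthase, had 68.3, 70.2, 75.3 and 70.7 CPM in HT55 and 62, 61, 61.2 and 58.7 CPM in SW948 under DMSO. Under itraconazole HT55 had 146, 207, 98.7 and 164 CPM and SW948 756, 979.7, 1009.7 and 1060.1 CPM. HMGCS1 was thus higher with the drug in every library of both lines, and SW948 opened a lead of 2.63 log2 units (SE 0.15, adjusted p = 4.30e-12). MSMO1, the sterol methyl oxidase, turned from 1.08 towards HT55 to 1.79 towards SW948, and SQLE, the squalene epoxidase, from 0.29 to 1.98 in the same direction. CYP51A1, the enzyme that azoles bind, had 15.6, 19.5, 17.4 and 18.6 CPM in treated HT55 and 33.8, 44.9, 44.9 and 37.8 CPM in treated SW948, from 11.5 ± 0.882 and 5.17 ± 0.937 under DMSO. Its difference turned from 1.16 towards HT55 to 1.18 towards SW948. FDFT1, the squalene synthase, was already higher in SW948 and widened to 2.16. Exceptions were LBR, a nuclear envelope sterol reductase, kept at 0.26 towards HT55, and PMVK, which opened to 0.75 towards HT55.

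The genes around the pathway divided: of 16 tested genes of sterol sensing and uptake, 11 were higher in HT55 and 2 in SW948 under DMSO, and 7 and 9 under the drug. Over all genes the shares were 37.7% and 38.2% under DMSO, and 41.5% and 39.3% under the drug. The 7 thus lay near the share of all genes. INSIG1, which holds SCAP in the endoplasmic reticulum when sterols are plentiful, had 125, 118, 138 and 115 CPM in HT55 and 32.6, 34.2, 50.2 and 33 CPM in SW948 under DMSO. Under itraconazole it had 414, 541, 337 and 476 CPM in HT55 and 1763, 3244, 3345 and 2726 CPM in SW948. The lead of HT55 by 1.73 turned into a lead of SW948 by 2.65 log2 units, the largest change among the 16 genes turned by at least 1 in both states. NPC1, which exports cholesterol from lysosomes, and SREBF2 opened to 1.1 and 0.97 towards SW948. SREBF1 narrowed but stayed higher in HT55, at 0.78. The escort SCAP and the site-2 protease gene MBTPS2 widened towards HT55, to 1.33 and 2.2. MBTPS2 had 12, 9.68, 6.87 and 9.61 CPM in treated SW948, all below the 35.7, 36, 33.3 and 34.2 CPM under DMSO, while HT55 had 52.3, 41.6, 42.7 and 40.3 CPM. Of the 7 tested genes of the sterol-activated receptors NR1H2 and NR1H3 and of sterol efflux, 5 were higher in HT55 and 2 in SW948 under the drug. Over all genes these shares were 41.5% and 39.3%. ABCA1, the cholesterol efflux pump, opened to 1.98 towards HT55, LPCAT3, which remodels phospholipids, widened to 2.0, and SMPDL3A to 1.79. ABCA1 stayed at a low level, 6.06 ± 2.45 CPM in treated HT55 and 1.52 ± 0.271 in treated SW948.

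**Figure D3:**
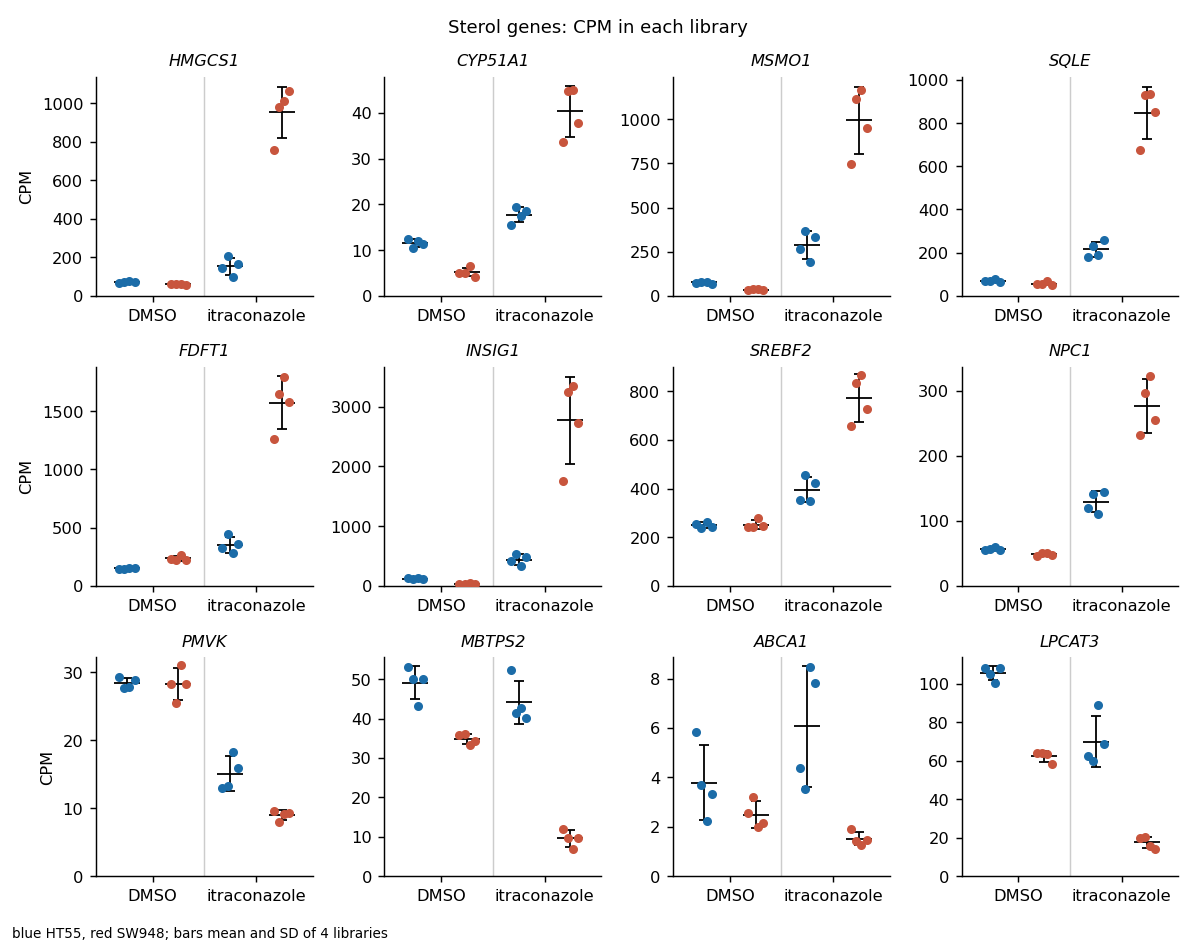
CPM of 12 sterol genes in each of the 16 libraries, HT55 in blue and SW948 in red, DMSO to the left and itraconazole to the right, with bars for the mean and SD of 4 libraries. The treated SW948 libraries are the highest for HMGCS1, CYP51A1, MSMO1, SQLE, FDFT1, INSIG1, SREBF2 and NPC1, whereas treated SW948 is the lowest group for PMVK, MBTPS2, ABCA1 and LPCAT3.

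Promoters of the sterol genes were searched for boxes of known sterol regulation. RefSeq promoters (GRCh38.p14) were matched for 17 of the 22 synthesis genes. The CCAAT box, bound by the factor NF-Y that works beside the sterol-regulated factors, was searched as CCAAT on both strands in 300 bases around the start. It stood in 12 of the 17 (70.6%), against 34.6% of all 35116 promoters, and was not in the windows of PMVK, IDI1, GGPS1, CYP51A1 and LBR. Of 12 matched promoters of sensing and uptake genes 6 held it (50%). The letters CACCCCAC, a core of the sterol regulatory element, stood in 0 of the 17 and in 2.79% of all promoters. For the 17, this says only that these exact letters are not in the window. They stood in 1 of the 12 sensing and uptake promoters, that of SREBF2, 132 bases before the start. Of 7 matched promoters of sterol-activated receptor and efflux genes, 1 held them. The 250 bases before the start of HMGCS1, a synthesis gene that opened, and of INSIG1, a sensing gene that turned, both towards SW948, follow as examples that hold the box, 5′ to 3′ on the gene's strand, with CCAAT or its reverse complement in capitals. In HMGCS1 the boxes begin 155 and 100 bases before the start, and in INSIG1 the box begins 170 bases before it.
HMGCS1, chr5:43313413-43313662, minus strand: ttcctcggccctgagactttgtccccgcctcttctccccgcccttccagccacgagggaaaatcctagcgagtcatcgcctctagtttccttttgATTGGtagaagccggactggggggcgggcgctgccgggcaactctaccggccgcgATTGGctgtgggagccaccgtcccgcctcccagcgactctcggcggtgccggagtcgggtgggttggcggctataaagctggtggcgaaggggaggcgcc
INSIG1, chr7:155297628-155297877, plus strand: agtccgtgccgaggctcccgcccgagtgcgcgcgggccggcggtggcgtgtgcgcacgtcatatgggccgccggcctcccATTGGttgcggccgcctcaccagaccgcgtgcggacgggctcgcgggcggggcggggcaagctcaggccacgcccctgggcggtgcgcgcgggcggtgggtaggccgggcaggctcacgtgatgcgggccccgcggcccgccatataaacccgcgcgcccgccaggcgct

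Cell cycle genes split by phase. Of 40 tested DNA replication genes, 34 were higher in HT55 under itraconazole and 3 in SW948, against 41.5% and 39.3% of all genes. Under DMSO 29 and 2 were so, against 37.7% and 38.2%. With plain library totals the DMSO counts were 22 higher in HT55 and 6 in SW948. The 2 became 1 without any single DMSO library other than SW948 replicate 3. The difference widened at 20, opened at 5 and was kept at 8, and its change ran towards HT55 at 24 and towards SW948 at 4. The median went from 0.72 under DMSO to 1.36 under itraconazole. E2F1, the transcription factor that drives entry into S phase, had 37.1, 34.2, 66.5 and 46.7 CPM in treated HT55 and 3.11, 3.48, 2.8 and 1.7 CPM in treated SW948. Under DMSO HT55 had 53.8, 52.2, 53.9 and 52.4 CPM and SW948 19.9, 20.4, 29.4 and 19.2 CPM. The treated SW948 libraries lay below all others, and the difference widened from 1.26 to 4.06 log2 units (SE 0.24, adjusted p = 4.18e-07 for the change). E2F2 widened from 1.36 to 5.47, GINS2, a subunit of the replicative helicase, from 2.26 to 4.37, and MCM10, a replication initiation factor, from 0.96 to 2.85. POLA1, the catalytic subunit of the primase-polymerase, widened to 2.83 and MCM3, a helicase subunit, to 2.52. CDC45, the helicase partner of the GINS complex, opened to 2.3, from 12.9 ± 1.11 and 15.5 ± 0.675 CPM under DMSO to 6.27 ± 1.65 and 1.29 ± 0.219 CPM under the drug. Going the other way, CCNE1, cyclin E1, opened to 1.95 towards SW948 with 10.9, 18.6, 19.3 and 15 CPM there and 3.44, 3.31, 5.71 and 3.73 CPM in treated HT55. RFC4, a clamp loader subunit, widened to 0.78 towards SW948.

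Mitotic genes moved towards SW948 in the same libraries. Of 35 tested, 27 were higher in HT55 and 5 in SW948 under DMSO, against 37.7% and 38.2% of all genes. Under itraconazole 15 and 13 were so, near the shares of all genes (41.5% and 39.3%). The change was called at 29, towards SW948 at 26 of them, against 53.9% and 24.8% of all genes. Of the 35, 10 narrowed, 7 turned, 6 closed and 5 were kept. Over all genes these shares were 8.58%, 7%, 8.05% and 31.1%. The median went from 0.94 to 0.03. AURKB, the kinase of the chromosomal passenger complex, had 42.9, 42.7, 44.5 and 44.5 CPM in HT55 and 29.1, 25.5, 28.2 and 27.1 CPM in SW948 under DMSO. Under itraconazole it had 27.9, 29.9, 25.7 and 20.5 CPM in HT55 and 55.5, 52.4, 48.6 and 55.1 CPM in SW948, and turned from 0.67 towards HT55 to 1.02 towards SW948 (SE 0.09). BUB1, a checkpoint kinase, and CCNB1, cyclin B1, opened to 1.32 and 0.73 towards SW948. PTTG1, securin, turned to 1.18 and CCNA2, cyclin A2, to 0.38. CCNB2 narrowed from 1.63 to 0.55 and stayed higher in HT55. TTK, the spindle checkpoint kinase, and ECT2, which directs cytokinesis, widened towards SW948 to 1.44 and 1.1. MKI67, which encodes the proliferation antigen Ki-67, went against most of the list. It had 297, 302, 386 and 364 CPM in treated HT55 and 44.6, 29.7, 33.1 and 36.7 CPM in treated SW948, and widened from 2.64 to 3.22 towards HT55. FOXM1, the transcription factor of the G2 programme, widened likewise to 2.5, with 28 ± 2.47 CPM in treated SW948 against 68.6 ± 4.72 CPM under DMSO.

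**Figure D4:**
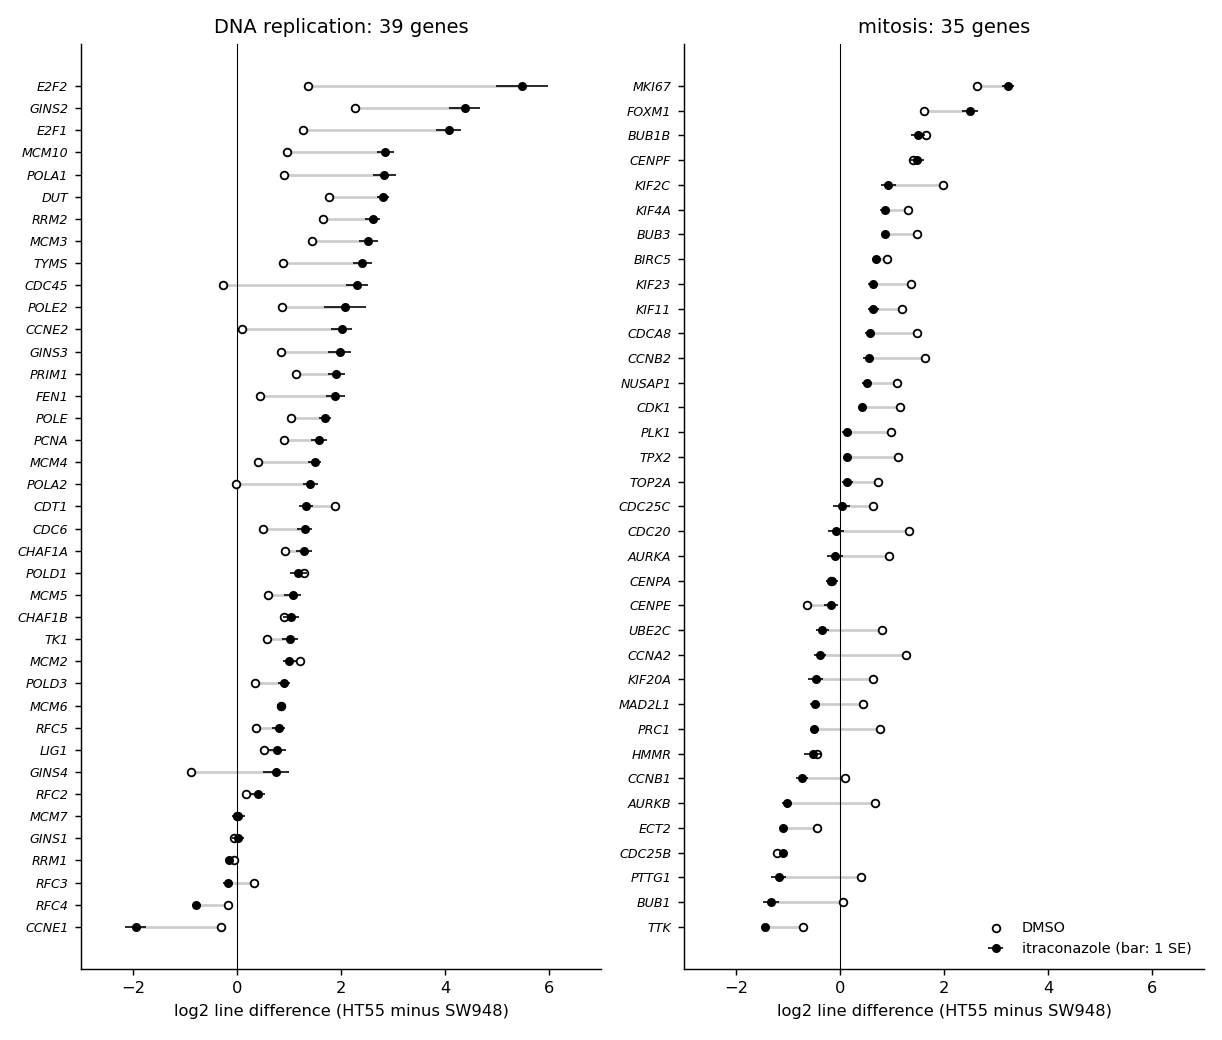
Log2 line difference (HT55 minus SW948) of 39 of the 40 tested DNA replication genes on the left and 35 mitosis genes on the right, open circles for DMSO and filled circles with a bar of 1 SE for itraconazole, each panel ordered by the itraconazole value. Most replication genes shift to the right under the drug, and most mitosis genes shift to the left, to a median of 0.03.

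The letters around the starts of these genes were counted as well. Windows of 300 bases, 250 before the start and 50 after it, were found for 35 replication and 28 mitosis genes. An E2F site, searched as TTTCCCGC or TTTGGCGC on both strands, stood in 18 of the 35 replication promoters (51.4%), in 2 of the 28 mitosis promoters (7.14%) and in 2.27% of all promoters. The CHR element of late cell cycle genes, searched as TTTGAA, stood in 18 of the 28 mitosis promoters (64.3%), in 1 of the 35 replication promoters (2.86%) and in 15.2% of all. CCAAT stood in 23 of the 28 mitosis promoters (82.1%) and in 18 of the 35 replication promoters (51.4%). The E2F and CHR letters were chosen after the values were seen, and a match is no proof of binding. The promoters of E2F1 and GINS2, which widened towards HT55, and of PRC1, a mitotic spindle gene that turned towards SW948, are given over 250 bases before the start with every searched motif in capitals. They are examples, and other genes went otherwise. MKI67 held CHR letters and CCAAT and widened towards HT55. MCM10 and CDC45 moved towards HT55 without E2F letters in those 250 bases. Whether the letters go with the direction of a change was not tested. The E2F letters begin 20 bases before the start of E2F1 and 31 before that of GINS2, and the CHR letters 20 bases before that of PRC1, behind a CCAAT at 53.
E2F1, chr20:33686386-33686635, minus strand: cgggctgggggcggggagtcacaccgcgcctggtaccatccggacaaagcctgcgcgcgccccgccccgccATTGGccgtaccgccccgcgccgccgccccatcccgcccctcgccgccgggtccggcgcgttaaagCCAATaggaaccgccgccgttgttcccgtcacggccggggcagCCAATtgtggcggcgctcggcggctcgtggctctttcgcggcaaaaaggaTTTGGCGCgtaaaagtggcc
GINS2, chr16:85688955-85689204, minus strand: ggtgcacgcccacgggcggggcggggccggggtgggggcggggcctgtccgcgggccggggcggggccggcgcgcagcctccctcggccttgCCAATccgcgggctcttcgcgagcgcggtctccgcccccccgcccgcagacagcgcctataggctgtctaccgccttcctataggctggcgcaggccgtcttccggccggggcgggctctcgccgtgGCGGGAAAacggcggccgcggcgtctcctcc
PRC1, chr15:90994536-90994785, minus strand: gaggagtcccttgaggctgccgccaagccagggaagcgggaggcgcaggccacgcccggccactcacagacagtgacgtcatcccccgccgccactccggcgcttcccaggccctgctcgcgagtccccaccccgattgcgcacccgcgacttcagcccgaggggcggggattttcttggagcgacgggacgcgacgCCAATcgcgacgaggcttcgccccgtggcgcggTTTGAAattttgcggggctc

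Of 8 tested CDK inhibitors, 5 were higher in SW948 and 1 in HT55 under itraconazole, against 39.3% and 41.5% of all genes, and 2 and 4 were so under DMSO. The change was called towards SW948 at 5 and towards HT55 at 1, against 24.8% and 29.1%. CDKN1A, the p21 gene, had 93.8, 168, 198 and 122 CPM in treated SW948 and 69.6, 57.6, 85.9 and 86.9 CPM in treated HT55, and opened to 0.95. CDKN1B, the p27 gene, opened to 0.88, from 100.3 ± 3.94 and 102 ± 3.54 CPM under DMSO. CDKN2A, the p16 gene, was kept: HT55 had 1.0 ± 0.564 CPM and SW948 59.5 ± 9.55 CPM under the drug, a difference of 5.93 towards SW948.

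Wnt targets were mostly higher in HT55 in either state. All 19 tested were called under itraconazole, 14 higher in HT55 and 5 in SW948, where all genes gave 41.5% and 39.3%. Of the 19, 10 were kept, against 31.1% of all genes, 3 narrowed, 3 widened, 2 turned and 1 opened. The change was called at 9, towards SW948 at 6 and towards HT55 at 3, against 53.9% of all genes, so members moved both ways. The median was 1.41 under DMSO and 1.41 under itraconazole. NOTUM, a secreted Wnt deacylase, had 707, 831, 1156 and 949 CPM in treated HT55 and 1.7, 2.71, 2.8 and 1.47 CPM in treated SW948, 8.73 log2 units apart, against 9.11 under DMSO. AXIN2, a feedback inhibitor in the destruction complex, was kept at 3.2, ASCL2, a crypt stem cell factor, at 3.47, and APCDD1, a Wnt inhibitor at the membrane, at 9.94. LGR5, the stem cell receptor, widened to 1.35 at low levels (7.6 ± 2.69 CPM in treated HT55 and 2.98 ± 0.765 in treated SW948). NKD1 and PROX1 narrowed to 5.13 and 3.65. SOX9, a crypt transcription factor, and the receptor EPHB3 turned towards SW948, to 0.24 and 0.40 with overlapping libraries, and CD44 opened to 0.58 towards SW948.

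Absorptive genes moved further apart towards HT55. Of 20 tested colonocyte genes, 13 were higher in HT55 and 5 in SW948 in either state, 8 widened, and 11 of the 12 called changes ran towards HT55, against 29.1% of all genes changed that way. The 1 change towards SW948 became 0 to 3 when single libraries were left out, 3 without treated HT55 replicate 4. The median went from 0.79 to 1.59. FABP1, a fatty acid binding protein, had 50.5, 47.8, 94.4 and 73.8 CPM in treated HT55 and 0.902, 0.129, 0.255 and 0.452 CPM in treated SW948, and widened from 3.6 to 7.13. MYO1A, the myosin of the brush border, had 7.21, 4.77, 3.95 and 6.56 CPM in treated SW948, below its 60.0, 65, 72.3 and 59.6 CPM under DMSO, and 69.6, 56, 114 and 78.4 CPM in treated HT55. Its difference widened from 0.75 to 3.8. VIL1, which bundles microvillar actin, widened to 1.63 and PHGR1 to 6.54. CEACAM5, the carcinoembryonic antigen, was kept at 1.48. KRT20, a keratin of the surface epithelium, stayed higher in SW948 and narrowed from 1.84 to 1.11. Of 22 intestinal transcription factors, 8 changed towards HT55 and 3 towards SW948, against 29.1% and 24.8% of all genes. CDX2, the homeobox factor of intestinal identity, had 358, 347, 367 and 376 CPM in treated HT55 and 164, 97.8, 78.5 and 108 CPM in treated SW948, and widened from 0.40 to 1.69. VDR, the vitamin D receptor, widened to 3.12 and CDX1 to 1.36. ISX, an intestinal homeobox factor, opened to 2.53, from 51.7 ± 2.78 and 47.8 ± 3.26 CPM under DMSO to 73 ± 14 and 12.4 ± 5.97 CPM.

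Secretory genes, keratins and junction genes held mixed patterns. LYZ, lysozyme, was all but absent from HT55, at 1.19, 2.36, 2.66 and 2.73 CPM under the drug, and had 322, 310.4, 351 and 289 CPM in SW948 under DMSO and 116, 93.8, 108 and 121 CPM under itraconazole. Its difference narrowed from 8.54 to 5.6 towards SW948. AGR2, a disulfide isomerase of secretory cells, narrowed from 3.97 to 1.8, and MUC2, the goblet cell mucin, was kept at 5.94. TFF3, a peptide of goblet cells, widened towards HT55 to 3.1, and MUC13, a membrane mucin, opened to 0.51. Of the 14 tested secretory genes 5 were higher in HT55 and 6 in SW948 under the drug, near the shares of all genes (41.5% and 39.3%). With at least 10 counts in every library, the 5 and 6 became 2 and 1. All 8 tested keratins changed, 6 of them towards SW948: KRT19 turned from 0.58 towards HT55 to 0.99 towards SW948 and KRT80 from 0.37 towards HT55 to 0.79. Among 27 junction genes 8 were higher in HT55 and 15 in SW948 under the drug, against 41.5% and 39.3% of all genes. CDH1, E-cadherin, and CDH17, the intestinal cadherin, widened towards HT55 to 1.13 and 1.51. CLDN1 opened to 1.71 towards HT55, from 174 ± 7.93 and 174 ± 5.35 CPM under DMSO to 104 ± 18.4 and 31.8 ± 5.03 CPM. CLDN4 widened to 1.33 towards SW948, and CLDN2 was kept at 4.83. Of 22 tested HOX genes, which record position along the body axis, 12 were higher in HT55 and 5 in SW948 under the drug. The shares over all genes were 41.5% and 39.3%. Of the 22, 11 were kept, against 31.1% of all genes. The 12 became 7 with at least 10 counts in every library.

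Of 21 tested AKR1C genes and targets of the factor NRF2, which answers oxidative stress, 13 were higher in SW948 and 6 in HT55 under the drug, against 39.3% and 41.5% of all genes. The change was called at 14, towards SW948 at 13 of them, against 24.8% of all genes. TKT, the transketolase of the pentose phosphate pathway, had 345, 345, 365 and 339 CPM in HT55 and 199.6, 183, 218 and 204 CPM in SW948 under DMSO, and 1011, 1299, 540.2 and 974 and 1979, 2868, 3168 and 2307 CPM under itraconazole. The difference turned from 0.79 towards HT55 to 1.43 towards SW948. AKR1C3, a reductase of steroids and prostaglandins, turned to 0.83, and TXNRD1, the thioredoxin reductase, opened to 1.56. AKR1C1 was kept at 2.68, with 42.6 ± 13 CPM in treated HT55 and 273 ± 66.4 in treated SW948 where DMSO levels were 1.65 ± 0.488 and 6.5 ± 3.44. The reads of AKR1C1 and of its close paralogs may be divided unevenly in short reads, so their separate values are uncertain. AKR1B10 was kept at 6.29. Of 24 tested genes of drug efflux and metabolism, 11 were kept, 11 were higher in HT55 and 12 in SW948, against 31.1%, 41.5% and 39.3% of all genes. The change was called towards HT55 at 10, or 6 without treated HT55 replicate 4, and towards SW948 at 3, against 29.1% and 24.8%. The exporter ABCC3 turned towards HT55, to 0.41. ABCB1, the multidrug exporter that itraconazole is known to inhibit, had 14, 20.8, 3.9 and 11.6 CPM in treated HT55 and 178, 113, 108 and 130.3 CPM in treated SW948, and narrowed from 4.68 to 3.43 towards SW948. ABCC4, which exports cyclic nucleotides and prostaglandins, widened to 4.47 towards SW948, and the glutathione transferase gene GSTP1 was kept at 1.45. CYP2B6, a xenobiotic-metabolising cytochrome whose reads may be shared with a close pseudogene, had 259, 268, 264 and 271 CPM in HT55 and 182, 192, 238 and 165 CPM in SW948 under DMSO, and 319, 249, 430.5 and 377 and 81.1, 49.3, 49.4 and 63.4 CPM under itraconazole. With the drug 3 of 4 HT55 libraries lay above all those of DMSO and every SW948 library lay below, and the difference widened from 0.45 to 2.49. CYP3A5, of the family that clears itraconazole, opened to 1.68 towards HT55 at low levels (20.4 ± 9.22 and 6.35 ± 2.17 CPM).

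Signalling genes differed in both directions. Of 9 tested ERBB receptors and ligands, 4 were higher in each line under the drug, near the shares of all genes (41.5% and 39.3%). EREG and AREG, ligands of the EGF receptor, widened towards SW948 to 4.17 and 4.39, while the receptor gene ERBB2 widened towards HT55 to 1.72. Of 18 ERK feedback genes, 10 were higher in SW948 and 3 in HT55 under the drug, against 39.3% and 41.5%. FOSL1, an AP-1 subunit, opened to 2.2 with 54.4, 86.1, 98.4 and 63.2 CPM in treated SW948 and 15.9, 22.8, 9.8 and 17.4 CPM in treated HT55. The ERK phosphatases DUSP4 and DUSP5 were kept at 6.13 and 2.81. DUSP5 was higher in both lines with the drug, from 4.58 ± 1.17 to 68.4 ± 26.6 CPM in HT55 and from 20.8 ± 1.99 to 479 ± 214 CPM in SW948. Of 20 BMP and TGF-beta genes, 14 were higher in HT55 under the drug, and 11 of 15 called changes ran towards HT55, against 41.5% and 29.1% of all genes. ID1, a direct BMP target, had 100.1, 97.2, 339.8 and 228 CPM in treated HT55 and 17, 19.5, 26.2 and 19.2 CPM in treated SW948, and widened from 0.85 to 3.23. SMAD6, an inhibitor induced by BMP, widened to 4.6, and TGFBI, a matrix protein induced by TGF-beta, to 3.01. TGFB1 was kept at 6.25 towards SW948, and GREM1, a BMP antagonist, narrowed from 6.48 to 2.18.

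Genes of the ATF4 stress response divided, with 12 of 15 called changes towards SW948 among 23 tested, against 24.8% of all genes changed that way. Under DMSO 4 of the 23 were higher in SW948, against 38.2% of all genes. The 4 became 9 in the fit of the 8 DMSO libraries alone. The class opened rests on the DMSO call, which was not recomputed for single members. ATF4 had 256, 253, 257 and 263 CPM in HT55 and 273, 242, 241 and 278 CPM in SW948 under DMSO, and 217, 252, 209 and 201 and 396, 583, 596 and 486 CPM under itraconazole. The libraries overlapped without the drug and lay apart with it, by 1.23 log2 units towards SW948. DDIT3, a stress transcription factor, PPP1R15A, which ends the translational block, and MTHFD2, a mitochondrial folate enzyme, opened to 1.59, 1.59 and 1.33, and ASNS, asparagine synthetase, turned to 0.77. The glutamine transporter SLC1A5 was kept at 1.94, and the amino acid transporter SLC7A5 widened to 2.06 towards HT55. GDF15, a stress-induced cytokine, widened towards SW948 to 2.55, with 348 ± 66.5 CPM in treated HT55 and 2040.3 ± 671 in treated SW948.

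Antigen presentation and interferon genes held both kept and moved members. Of 19 MHC class I genes, 13 were higher in HT55 and 2 in SW948 under DMSO, 9 and 4 were so under the drug, and 10 of 12 called changes ran towards SW948. Over all genes the shares were 37.7% and 38.2% under DMSO, 41.5% and 39.3% under the drug, and 24.8% changed towards SW948. B2M, the light chain of every class I molecule, had 2064, 2530.3, 1717 and 2003 CPM in treated HT55 and 651, 688, 649 and 710.0 CPM in treated SW948. The HT55 libraries lay above those of SW948, and the difference was kept, 1.78 before and 1.62 after. HLA-B narrowed from 2.09 to 0.53 towards HT55, and TAP1, the peptide transporter, closed from 1.14 to -0.07. HLA genes are highly polymorphic and alike, so reads of an allele far from the reference can be lost or shared, and their values are uncertain. Of 24 interferon-stimulated genes, 12 were kept, 11 were higher in HT55 and 12 in SW948 under the drug, against 31.1%, 41.5% and 39.3% of all genes. OAS1, which senses double-stranded RNA, was kept at 2.22 towards HT55 (385 ± 51.4 CPM against 82.8 ± 9.98). IFITM3, which blocks virus entry, widened to 5.02 towards SW948, and IFIH1, an RNA sensor, opened to 1.1. Only 3 of 12 MHC class II genes were tested, 1 higher in HT55 and 2 in SW948, and 2 of 21 cancer-testis antigens, 1 in each direction.

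Secreted and metabolic genes held kept and moved differences. Of 20 tested senescence secretory genes, 14 were higher in SW948 and 2 in HT55 under the drug, and 10 were kept, against 39.3%, 41.5% and 31.1% of all genes. The 14 became 4 with at least 10 counts in every library, a filter that removes genes low in either line. Most of the 14 thus rested on members low in some libraries. PLAUR, the urokinase receptor, had 21.4, 27.7, 12.5 and 22.5 CPM in treated HT55 and 88.9, 161, 183 and 124 CPM in treated SW948 and was kept at 2.74, against 2.05 under DMSO. IGFBP4, an IGF-binding protein, and HMGB1, a chromatin protein, widened towards HT55 to 1.91 and 1.07. Of 32 glycolysis and hypoxia genes, 11 were kept, 13 were higher in HT55 and 14 in SW948 under the drug, near the shares of all genes (31.1%, 41.5% and 39.3%). SLC2A1, the glucose transporter, had 1799, 1691, 2006 and 2222 CPM in treated HT55 and 127, 185, 202 and 142 CPM in treated SW948, and widened from 2.86 to 3.56 towards HT55. PFKP, a phosphofructokinase, was kept at 3.67 towards SW948, HK1, a hexokinase, narrowed from 1.47 to 0.31, and LDHA, lactate dehydrogenase, opened to 0.50 towards SW948. Of 15 fatty acid genes, 12 were higher in HT55 and 2 in SW948 under DMSO, against 37.7% and 38.2% of all genes. Under the drug 6 and 5 were so, near the shares of all genes (41.5% and 39.3%). All 9 called changes ran towards SW948, where 53.9% of all genes changed and 24.8% changed that way. FADS2, a fatty acid desaturase, narrowed from 3.18 to 1.71, and ACSL3, an acyl-CoA synthetase, turned from 0.61 towards HT55 to 0.61 towards SW948.

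Further gene groups gave smaller sets. The metallothionein MT1X, which binds zinc and has close paralogs that may share its reads, had 4.77, 5.56, 5.09 and 4.63 CPM in HT55 and 0.401, 0.473, 0.869 and 1.23 CPM in SW948 under DMSO, and 4.87, 4.01, 1.71 and 1.62 and 3.71, 18.8, 31.3 and 10.6 CPM under itraconazole, and turned from 2.71 towards HT55 to 2.39 towards SW948. MT2A went from 5.24 to -0.76, HT55 minus SW948, with 7.11, 33.2, 51 and 19.4 CPM in treated SW948, a spread in which replicate 3 lay highest. Its call under itraconazole was lost in 16 of the 24 alternatives run, among them the fit without that library (adjusted p = 0.391, difference -0.29). Of 5 tested bile acid genes 2 were higher in HT55 and 3 in SW948 under the drug. The shares over all genes, also for the counts of the small lists below, were 41.5% and 39.3%. FGF19, the bile acid hormone of the ileum, turned from 4.06 towards HT55 to 1.32 towards SW948, with 3.33, 3.31, 6.0 and 3.11 CPM in treated HT55 and 9.52, 10.1, 10.8 and 9.72 CPM in treated SW948. The imprinted RNA H19 was kept at 9.8 towards HT55, while its neighbour IGF2 narrowed from 7.25 to 2.82. GRB10, an adaptor of the insulin receptor, widened to 3.42 towards SW948. Of 9 tested imprinted genes 5 were higher in HT55 and 4 in SW948 under the drug, and of 12 metallothionein and zinc transport genes 5 in each direction. The 5 in SW948 became 3 without any single DMSO library and without treated SW948 replicate 2. Of the 13 mitochondrially encoded genes, 11 were higher in HT55 under DMSO and 8 under the drug, or 11 without treated SW948 replicate 1, and none in SW948, or 1 without some of the single libraries. The change was called towards SW948 at 5 of them and towards HT55 at 1, or 4 without treated SW948 replicate 1. The 1 was MT-CYB, which went from 2612 ± 85.1 and 1039.6 ± 192 CPM to 2766 ± 305 and 551 ± 229.9 CPM, and widened from 1.33 to 2.33.

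**Figure D5:**
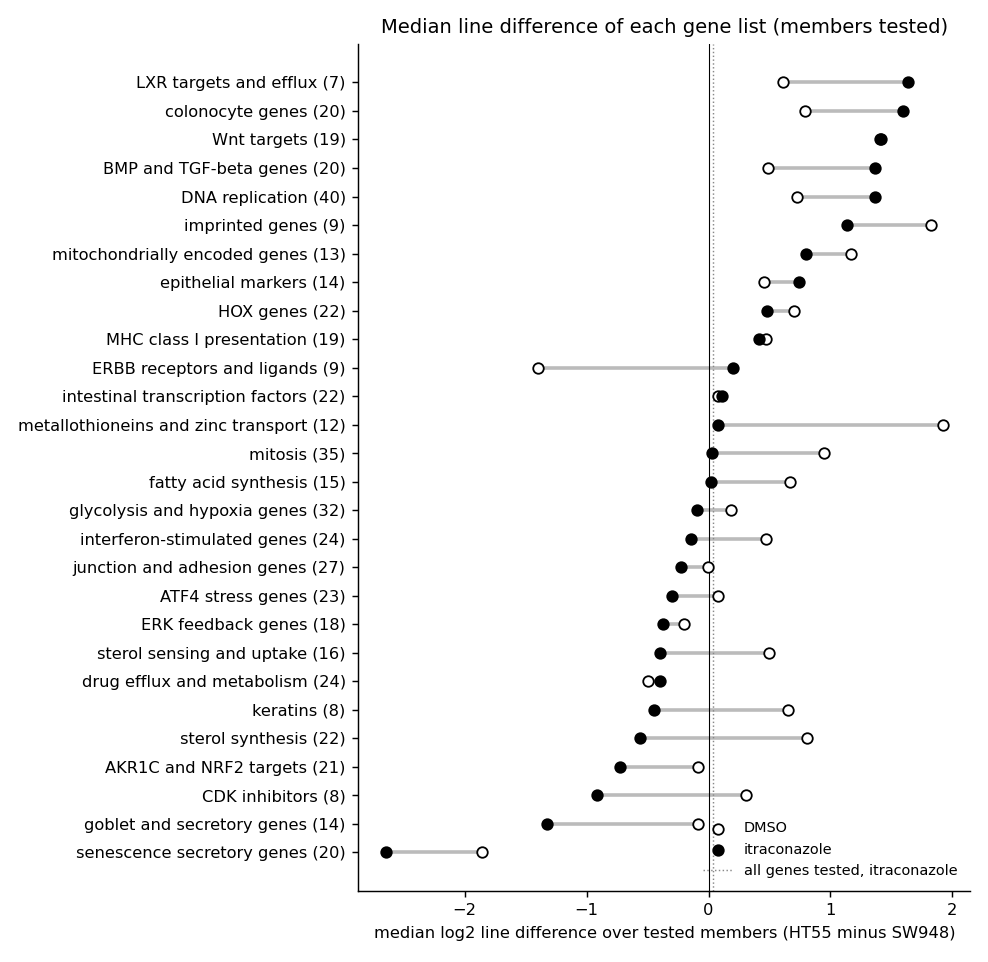
Median log2 line difference (HT55 minus SW948) over the tested members of each gene list with at least 7 tested members, open circles for DMSO and filled circles for itraconazole, with the number of members in brackets and the dotted line at the median of all genes under itraconazole. Sterol synthesis moves from 0.80 to -0.56, mitosis to 0.03 and DNA replication to 1.36, while Wnt targets stay at 1.41.

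Differences that lay together on chromosomes were much the same in both states. The medians of 152 bins of 20 Mb (hg19) with at least 20 tested genes had the same sign under DMSO and itraconazole in 135, and correlated with Pearson's r = 0.941 across bins, which share libraries. Genes of chromosome 16 from 0 to 20 Mb were higher in HT55, with a median of 0.88 under itraconazole and 0.86 under DMSO. At chromosome 20 beyond 60 Mb the median was 1.13 towards SW948 under the drug and 0.79 under DMSO, with 35 of its 46 genes called higher in SW948. Over whole chromosomes the medians under itraconazole ran from 0.66 on chromosome 15 and 0.66 on chromosome 16, both towards HT55, to -0.47 on chromosome 18, towards SW948. Copy number was not measured in these files.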

How the data were processed

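RNA-seq of HT55 and SW948 cells, each under itraconazole or DMSO, was analysed in 16 libraries, 4 per group as the labels give them. Per the labels and the methods of the study, total RNA was sequenced as single-end 50 bp reads, aligned to hg19 with TopHat, counted per Ensembl gene with HTSeq and compared with DESeq; their versions are not given in the sources used here. The deposited values are raw read counts, made by the authors per library without pooling. The 5 closing summary lines of each table were left out of totals and tests. Of 54127 genes listed, 27946 had no count, and 13249 passed edgeR's filterByExpr.

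One quasi-likelihood fit (edgeR 4.0.16, R 4.3.3; scaling by TMM, the trimmed mean of M values; 1 coefficient per group, no covariate) gave the line difference under itraconazole, the difference under DMSO, and the change between them. Genes were called at a Benjamini-Hochberg adjusted p under 0.05 over all 13249 genes. The script was tested on simulated data. The counting intervals of ratios and the floor of 3 counts over a group cover counting error only. The intervals of line differences and of their changes were built from the SE of the fit, so they include the spread between libraries. Depth was 8269406 to 11110814 gene counts per library.

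Named genes were the 8 largest differences in each direction and up to 6 each of tightly opened, closed, kept and turned genes, all protein-coding with log2 CPM averaging 4 or more in the higher group, and members of 33 gene lists, also where these were non-coding or lower. Some named genes are not reported here. The comparison and the lists were chosen with earlier results of these data known, so list counts are descriptions and no set test was run. Alternatives were DESeq2 (1.42.0) and its size factors, plain library totals, other filters and thresholds, a replicate block, the libraries of 1 drug state alone, leaving out each library, and limma voom (3.58.1) with a weight per group, which was chosen after seeing the data. Promoter sequences are from RefSeq, GRCh38.p14, matched by symbol.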

Additional observations from a re-analysis of the deposited data

Results flagged for a closer look

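Single libraries stood apart from the other 3 of their group in 9 of 338 sets of 4 treated libraries, by Dixon's gap ratio, where chance alone would give about 1 in 20. Treated SW948 replicate 1 had 4 of these. It had 26.7 CPM of VDR (others 16.3 to 17.5), 146 CPM of ERBB2 (others 115 to 121), 2.80 CPM of SMAD6 (others 1.42 to 1.53) and 110.1 CPM of ABCC4 (others 91.3 to 94.4). Treated HT55 replicate 3 had 38.5 CPM of EFNA3 (others 26.9 to 27.6), 149.0 CPM of PHLDA1 (others 209 to 221) and 6.00 CPM of FGF19 (others 3.11 to 3.33). Treated HT55 replicate 2 had 19.4 CPM of RCAN3 (others 16 to 16.2), and treated SW948 replicate 3 had 1.91 CPM of SLC26A3 (others 3.48 to 3.61).

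The line difference itself changed between the drug states at 7141 genes by the test of that change. Among the 12 named genes that turned by the rule, the change towards HT55 was 3.44 log2 units for CFTR, 2.79 for ARRB1, 2.73 for DBNL, 2.72 for ASL, 2.37 for COL17A1 and 2.31 for CDC42BPG. The change, HT55 minus SW948, was -4.37 for INSIG1, -4.35 for ARRDC3, -3.39 for CDKN1C, -3.33 for TPPP, -2.87 for MSMO1 and -2.51 for SNAI1.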

How the results depend on the processing

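For the 179 named genes, 167 differences under itraconazole and 136 changes were recomputed, and none reversed under any of the settings run. Their differences under DMSO were not recomputed gene by gene. The DMSO call that separates opened from widened or turned was thus not checked for single genes. Calls were lost for 2 genes: the treated difference of MT2A, and the change of MME without SW948 DMSO replicate 3. MT2A lost its call in 16 of 24 alternatives and went from -0.76 to -0.29 without treated SW948 replicate 3 and to -0.40 with voom. With a minimum absolute log2 difference of 1, the calls were 5505 under itraconazole (2966 higher in HT55, 2539 in SW948), 4394 under DMSO (2074 and 2320) and 2760 for the change (1777 towards HT55, 983 towards SW948, a share of 64.4% towards HT55 against 53.9%). The classes then held 2508 kept, 218 narrowed, 418 widened, 505 closed and 73 turned genes, by construction of the threshold. At an adjusted p under 0.01, 698 narrowed and 584 turned. With at least 10 counts in every library, 2715 genes were kept, of fewer tested. With voom 1116 opened, against 1702 in the main fit. The voom weights were 2.06 for HT55 and 1.5 for SW948 under DMSO, and 0.447 and 0.724 under itraconazole. The main fit used 1 dispersion per gene for all groups, and the cause of the lower count was not tested. Leaving out each of the 16 libraries gave 10528 to 10837 genes under itraconazole, 6762 to 7450 for the change, 1513 to 1830 opened and 818 to 1056 turned. Levels under 1 CPM, and spread that was wider in the treated libraries, limit the smallest differences.

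The replicate numbers gave no general pairing of the libraries. Deviations of same-numbered libraries correlated between -0.12 and 0.197, and those of differently numbered libraries between -0.19 and 0.183. The pairs of replicate 3 libraries gave 0.197, 0.116, 0.104, 0.0738, 0.0297 and -0.0462. Whether some of these libraries share a deviation was not tested. With the number as a replicate block, 10728 genes were called under itraconazole, 10075 under DMSO and 7155 for the change, and among named genes the block changed only the call of MT2A under itraconazole (-0.67, adjusted p = 0.0804).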
